A study of Mus musculus with 58 samples.

Results

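Ovariectomy was examined in ASC2, the adipose stem cells that carry DPP4 on their surface, by comparing the 8 libraries labelled ovariex_ASC2 with the 8 libraries labelled as control female ASC2. These are 16 of the 58 libraries of the experiment, and they were chosen by the sample labels alone. Cells negative for CD45 and CD31 and positive for CD34 and DPP4 had been sorted from inguinal white adipose tissue (iWAT) of female C57BL6/J mice, and their RNA was sequenced in bulk by Smart-seq3, a full-length cDNA protocol. Ovaries were removed at 4 weeks of age and the mice were terminated at 10 weeks, after fasting, together with age-matched controls. Whether the controls had a sham operation, and how far circulating estrogen fell, is not given in the sources used here. Libraries are named below by their well, A3 to H3 for controls and I3 to P3 for ovariectomized mice.

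Adipose stem cells, also called preadipocytes, are fibroblast-like cells that lie between the adipocytes and along the vessels of fat. The DPP4+ population is regarded as an early progenitor with features of a connective tissue fibroblast, marked by Pi16, Cd55, Wnt2 and Sema3c, whereas the DPP4- population (ASC1) is closer to the adipocyte. Estrogen, made mainly in the ovary before menopause, acts through nuclear receptors such as ESR1, and its loss is known to increase fat mass in mice.

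Total counts were 554644 to 1048918 per control library and 106562 to 1118866 per ovariectomized library, with 13087 to 14566 and 9334 to 15016 genes detected. The shallowest were P3 (106562 counts), N3 (248109) and O3 (411548). Levels are CPM, a gene's reads scaled to a library of standard size, with TMM-adjusted library sizes. Over the 10946 genes tested, the biological coefficient of variation was 33.6% and the median log2 fold change was 0.00.

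Cd34, Dcn, Lum, Pdgfra and Pi16, markers of the sorted cells, were read in every library, at unequal levels. The ASC2 markers Arl4d and Limch1 had 0 reads in P3. Of 8 fibroblast markers 3 fell after ovariectomy (Cd34, Dcn and Lum) and none rose, with a median log2 fold change of -0.38. Cd34, used in the sort, fell from 900 ± 474 to 320 ± 186 CPM (SD, n = 8 and 8, edgeR adjusted p = 0.0250). Pdgfra, a receptor gene that marks fibroblasts, was at 308 ± 64.1 CPM in controls and 328 ± 131 CPM after ovariectomy, and the ASC2 marker Pi16 was at 373 CPM or more in every library. Markers of cells that the sort should remove were low for endothelium (Pecam1 at most 27.7 CPM, Cdh5 at most 31.5 CPM) and for CD45 (Ptprc at most 11.8 CPM). Lyz2, a macrophage lysozyme gene, was nevertheless at 461 to 1596 CPM, and Spp1, which encodes osteopontin, was on average the most abundant transcript, at 4413 to 19038 CPM.

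The libraries nevertheless did not form 2 uniform groups, and 3 properties must be known before the comparison is read. Tcf21, a transcription factor gene known from visceral adipose progenitors, was at 29.1 to 49.0 CPM in C3 and D3 of the controls and in I3, J3, K3 and L3 of the ovariectomized mice, and had 0 or 1 read in each of the other 10 libraries. Other visceral and mesothelial genes, named after their values were seen, moved with it. Wt1 had 7 to 30 reads in those 6 libraries and 0 or 1 in the others, and Upk3b 4 to 26 against 0 to 2. All libraries are labelled as inguinal fat, so these transcripts leave the depot or plate position of the 6 libraries in doubt, which was not tested. With presence of Tcf21 as a term beside ovariectomy, 2066 genes (18.9% of those tested) differed with Tcf21. Second, the Y-chromosome genes Eif2s3y, Ddx3y, Kdm5d and Uty (4 in all) together had 23 to 47 reads in the 6 Tcf21-free control libraries A3, B3, E3, F3, G3 and H3, against the female label, and none in C3, D3 or any ovariectomized library. Sult1e1 and C7, which the study lists as higher in male ASC, were at 0 reads and at 0 to 8 reads in the controls. Agt, on the same list, was at 12.5 to 22.1 CPM in A3, B3, F3, G3 and H3. It was at 0 CPM in E3 and at 4.85 and 6.61 CPM in C3 and D3. Fkbp5, also listed, was at 14.0 to 63.8 CPM in the 6 libraries with Y-chromosome reads and at 17.5 and 34.4 CPM in C3 and D3. The study's methods note Y-chromosome reads in female controls and attribute them to a slight carry-over of male RNA, which was not tested here. Xist, the RNA of the inactive X chromosome, was also in the 6 control libraries with Y-chromosome reads, at 7.38 to 85.9 CPM. It was at 66.1 and 97.9 CPM in D3 and C3 and at 26.1 to 80.5 CPM after ovariectomy. Labels and sex-chromosome transcripts also conflicted in other groups of the experiment. Of 8 libraries labelled castrated male ASC1, 7 held 20 or more Xist reads and 1 held 3 or more Y-chromosome reads. The epithelial keratin genes Krt7, Krt8, Krt14 and Krt18, finally, were high in the 4 Tcf21-free ovariectomized libraries M3 to P3.

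The libraries therefore fall into a Tcf21-holding set of 2 controls and 4 ovariectomized libraries, in which no Y-chromosome read was found, and a Tcf21-free set of 6 controls and 4 ovariectomized libraries, in which all controls had such reads and no ovariectomized library did. Within the Tcf21-free set, ovariectomy and the absence of Y-chromosome transcripts cannot be told apart. The sets were defined after the data had been seen, and results are given below for the 8 against 8 libraries as labelled and for each set.

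**Figure D1:**
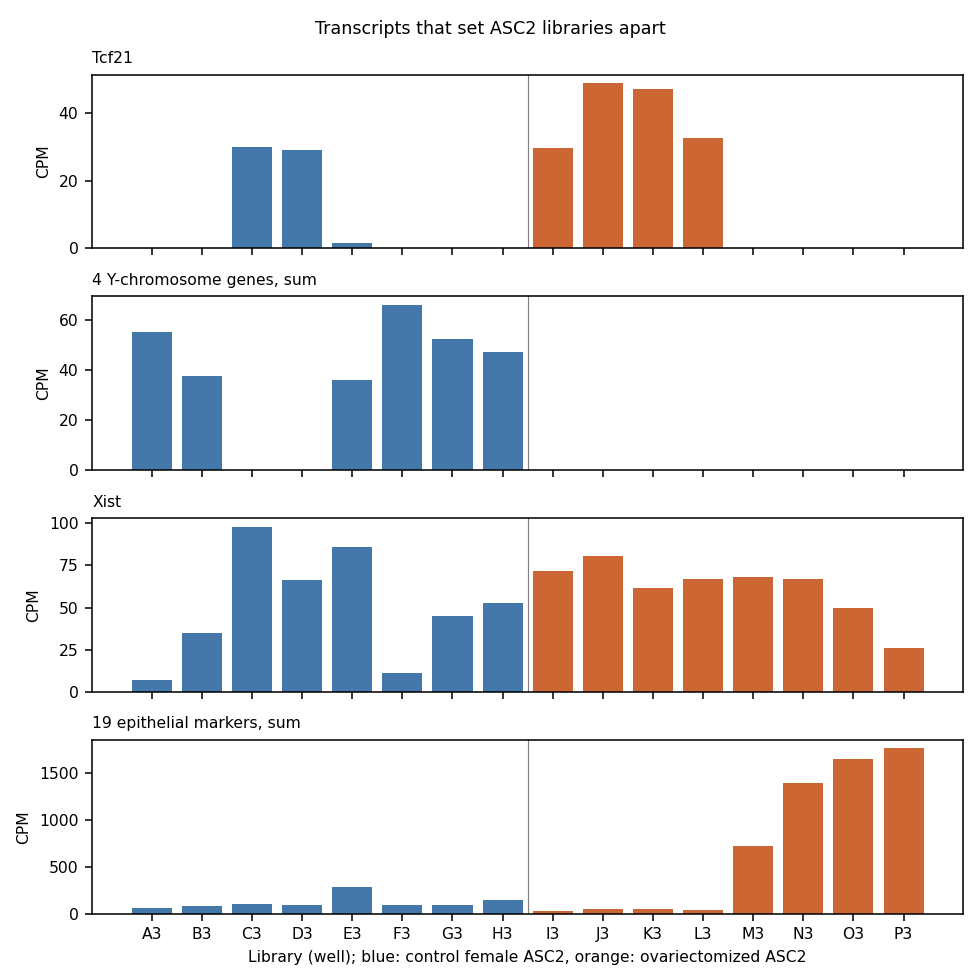
Tcf21, the summed Y-chromosome genes, Xist and the summed 19 epithelial markers in CPM (y axes) in each of the 16 libraries (x axis), control in blue and ovariectomized in orange. Tcf21 is at 29.1 to 49.0 CPM in C3, D3 and I3 to L3, Y-chromosome reads are in 6 controls, and the epithelial sum is highest in M3 to P3.

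Between the groups as labelled, 184 of 10946 genes differed (edgeR quasi-likelihood test, Benjamini-Hochberg adjusted p below 0.05 over all genes tested). In ovariectomized ASC2, 137 genes were lower (1.25% of genes tested) and 47 were higher (0.429%). The lower genes included surface and secreted markers of the DPP4+ progenitor, complement components, small proteoglycans and immediate early genes, and the higher ones included actin cytoskeleton genes, Inhba, Timp1 and keratins. In bulk RNA, fewer cells of a kind and less RNA per cell cannot be told apart. The groups did not overlap library by library for 27 genes that were lower (0.247%) and 11 that were higher (0.100%). With presence of Tcf21 as a term, 182 genes were lower and 118 higher, and 169 of the 184 genes passed again in the same direction.

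In the Tcf21-holding set 147 of 9908 genes tested fell and 13 rose, and in the Tcf21-free set 39 of 9568 fell and 75 rose. Of the 137 lower genes, 111 could be tested in the Tcf21-holding set, where 110 had the same sign and 72 passed the threshold, and 134 in the Tcf21-free set, where all 134 had the same sign and 19 passed. Of the 47 higher genes, 4 of 40 tested passed in the Tcf21-holding set and 30 of 43 in the Tcf21-free set. The same libraries chose these genes, so these counts are a description. Without the 6 control libraries with Y-chromosome reads, which leaves 2 controls against 8, C4b and Steap3 alone passed, both lower, and 821 genes had an unadjusted p below 0.05. With the Y-chromosome level as a covariate no gene passed in edgeR, and 893 had an unadjusted p below 0.05. That level was 0 in every ovariectomized library and, among controls, in C3 and D3 alone. The ovariectomy effect in that fit therefore rests largely on those 2 controls, and the fit cannot separate it from the Y-chromosome transcripts. Leaving out single libraries gave 71 (G3, K3 or O3) to 342 genes (D3). The count was also below 123 without E3 (98), H3 (113), I3 (114), J3 (102) or L3 (87), and it rose to 299 without M3.

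**Figure D2:**
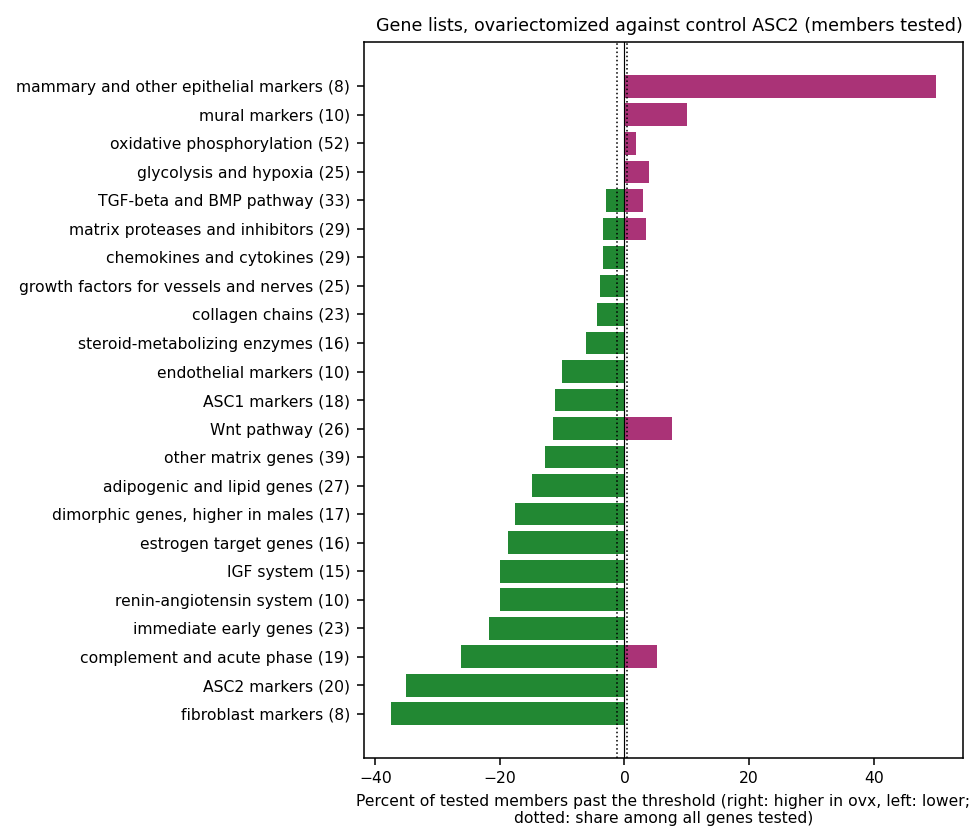
Percent of the tested members of each gene list (y axis, number tested in brackets) that passed the threshold in ovariectomized against control ASC2 (x axis, higher to the right, lower to the left), with the share among all genes tested as dotted lines. Fibroblast markers, ASC2 markers and complement genes reach furthest to the left, and epithelial markers furthest to the right.

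Of 20 ASC2 markers tested, 7 fell and none rose, with a median log2 fold change of -1.09 over the 20 against 0.00 over all genes. Dpp4 (ENSMUSG00000035000.9), the peptidase gene whose product was used in the sort, was at 92.7 to 482 CPM in controls (median 218) and at 52.2 to 150 CPM after ovariectomy (median 85.5). The groups overlapped through the lowest controls, F3 and A3, and the highest ovariectomized libraries, I3, M3 and N3. The log2 fold change was -1.41 (standard error 0.29, adjusted p = 0.0158), and it stayed past the threshold whichever single library was left out. In the Tcf21-holding set Dpp4 was at 298 and 196 CPM in the 2 controls against 58.3 to 100 CPM in the 4 ovariectomized libraries (log2 fold change -1.60, adjusted p = 3.26e-04), and in the Tcf21-free set the log2 fold change was -1.24 (adjusted p = 0.172).

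Cd55, which encodes a complement decay-accelerating factor on the cell surface, fell from 147 ± 90.3 to 48.9 ± 17.5 CPM (log2 fold change -1.55, standard error 0.33, adjusted p = 0.0221). Sema3c, a secreted semaphorin, fell from 134 ± 107 to 40.3 ± 21.4 CPM, and Wnt2, a secreted Wnt ligand, from 106 ± 48.3 to 44.8 ± 24.1 CPM (adjusted p = 0.0304 and 0.0364). The calcium-binding Anxa3 was at 746 CPM or more in every control and at 740 CPM or less in every ovariectomized library (log2 fold change -0.70, adjusted p = 0.0270). Ly6c1 and Limch1 also fell. Sema3c and Wnt2 lost the threshold in 8 of the 16 single-library omissions, Anxa3 in 6 and Cd55 in 2, without K3 or O3. Pi16, a secreted peptidase inhibitor that is the best known marker of this population, was at 1099 to 5020 CPM in controls and 373 to 2725 CPM after ovariectomy and did not pass (log2 fold change -1.08, adjusted p = 0.134).

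In the Tcf21-holding set 12 ASC2 markers fell (median log2 fold change -1.65), Pi16 among them (log2 fold change -2.08, adjusted p = 0.00143), and in the Tcf21-free set none passed (median -0.63). Over all genes, 147 of 9908 tested fell in the Tcf21-holding set and 39 of 9568 in the Tcf21-free set. The difference between the sets was not tested. Of 18 ASC1 markers, Ifi205 and Inmt fell and none rose. Col15a1, a collagen gene of the ASC1 population, was at 99.0 ± 46.8 and 129 ± 53.3 CPM (adjusted p = 0.592).

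**Figure D3:**
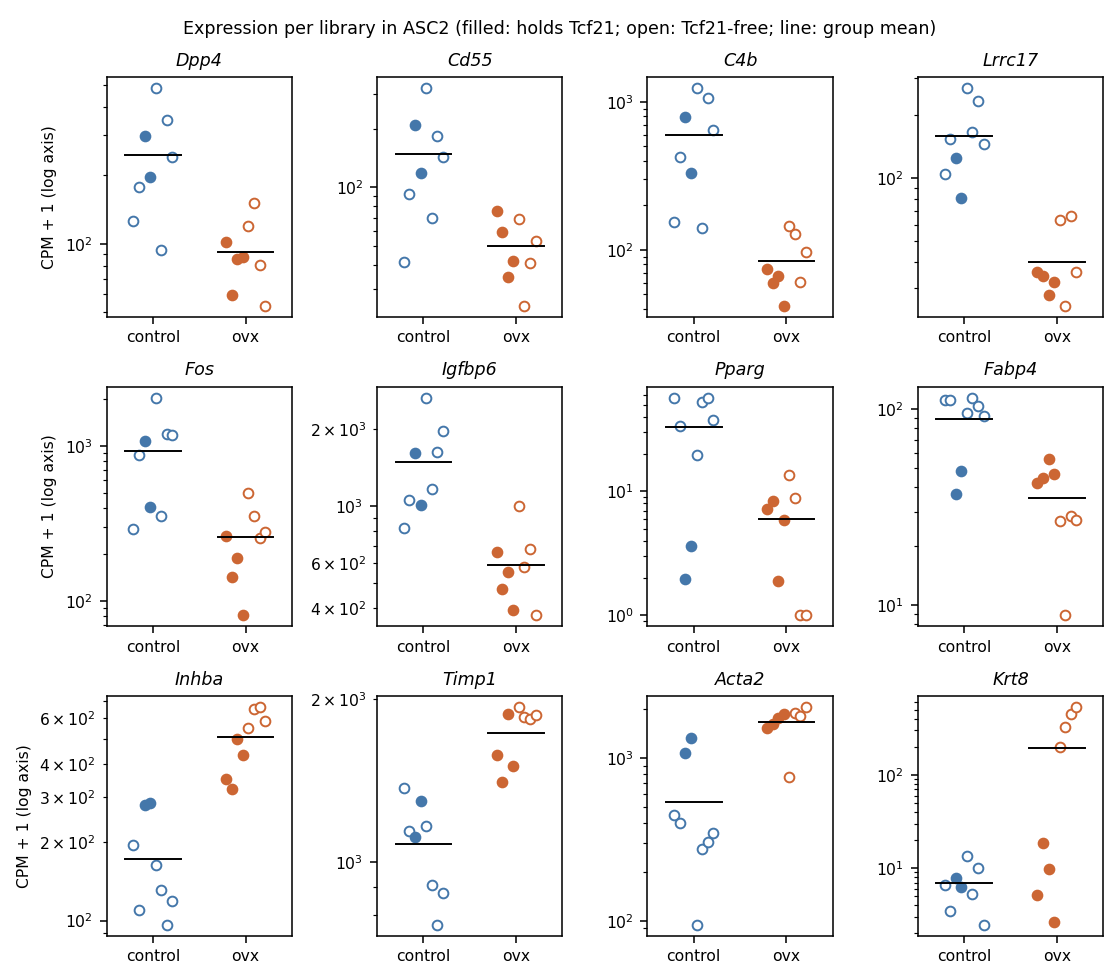
CPM + 1 (log y axis) of 12 genes in each library of control and ovariectomized ASC2 (x axis), filled for Tcf21-holding and open for Tcf21-free libraries, with a line at the group mean. The fitted changes of Dpp4, Cd55, C4b, Lrrc17, Fos and Igfbp6 are negative in both sets, of which C4b and Lrrc17 passed in the Tcf21-free set, where Dpp4 and Cd55 overlap between groups, and Krt8 is high in the 4 open ovariectomized libraries alone.

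Complement is a cascade of plasma proteases and opsonins, of which stromal cells make several components. Of 19 complement and acute phase genes tested, 5 fell (C4b, C3, C1ra, Cfd and Cd55) and 1 rose (Masp1). C4b (ENSMUSG00000073418.5), which encodes complement component 4, was at 141 to 1232 CPM in controls (median 534) and at 40.8 to 143 CPM after ovariectomy (median 69.7). Only M3, at 143 CPM, exceeded a control, F3, at 141 CPM. The log2 fold change was -2.87 (standard error 0.41, adjusted p = 0.00189), and it passed in both sets (-3.22, adjusted p = 4.38e-06, in Tcf21-holding and -2.50, adjusted p = 0.0285, in Tcf21-free libraries) and without the controls with Y-chromosome reads. C4b has near-identical neighbouring copies in the mouse genome, so the assignment of its reads is uncertain.

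C3, the central complement component, fell from 1741 ± 1118 to 541 ± 341 CPM (adjusted p = 0.0446), and C1ra, a protease of the classical pathway, from 561 ± 284 to 253 ± 70.9 CPM (adjusted p = 0.0345). Both lost the threshold in most single-library omissions (12 and 9 of 16). Cfd, the adipokine adipsin, was low in both groups, at 8.01 ± 3.82 and 2.75 ± 5.99 CPM. Masp1, a protease of the lectin pathway, rose from 19.9 ± 10.9 to 60.5 ± 26.3 CPM (adjusted p = 0.0251). Il1r2, the decoy receptor for interleukin 1, was at 124 CPM or more in every control and at 106 CPM or less in every ovariectomized library (log2 fold change -1.85, standard error 0.37, adjusted p = 0.0141), and was the only 1 of 29 chemokine and cytokine genes to pass.

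The matrix that surrounds these cells is made of collagens, elastic fibres and proteoglycans. Of 39 non-collagen matrix genes 5 fell and none rose, and of 23 collagen chains Col6a3 alone fell (log2 fold change -0.69, adjusted p = 0.0408). Eln, the elastin gene, was at 105 to 518 CPM in controls and 35.5 to 171 CPM after ovariectomy (log2 fold change -1.93, standard error 0.34, adjusted p = 0.00850). The proteoglycan genes Dcn, Lum, Ogn and Aspn fell with log2 fold changes of -0.98, -0.86, -1.29 and -1.25 (adjusted p = 0.0494, 0.0409, 0.0344 and 0.0345), and all 4 lost the threshold without G3, K3 or O3. Bgn, the biglycan gene of the same family, was at 2981 ± 915 and 3908 ± 973 CPM and did not pass (log2 fold change 0.39, adjusted p = 0.403). Col1a1, the chain of type I collagen, was at 3185 ± 1310 and 3425 ± 1549 CPM (adjusted p = 0.926). Cd34 fell in the Tcf21-holding set too (log2 fold change -1.84, adjusted p = 8.29e-04), and lost the threshold without E3, G3, K3 or O3.

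Timp3, a matrix-bound metalloproteinase inhibitor, fell (log2 fold change -1.26, adjusted p = 0.0277), and Timp1, its secreted relative, rose. Timp1 was at 765 to 1367 CPM in controls and 1403 to 1929 CPM after ovariectomy, without overlap (log2 fold change 0.68, standard error 0.14, adjusted p = 0.0153). Mmp10, which encodes stromelysin 2, was at 5.88 to 37.0 CPM and 40.0 to 70.3 CPM, also without overlap (log2 fold change 1.503, adjusted p = 0.00953). Within the Tcf21-holding set, Timp1 and Mmp10 did not pass (adjusted p = 0.210 and 0.212).

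Among genes outside the lists whose groups did not overlap, Lrrc17 (ENSMUSG00000039883.6), which encodes a secreted leucine-rich repeat protein, had the smallest p. It was at 79.3 to 267 CPM in controls (median 148) and 23.6 to 65.0 CPM after ovariectomy (median 34.1), with a log2 fold change of -2.004 (adjusted p = 0.00172, standard error 0.26). It fell in both sets, by 1.70 on the log2 scale in the Tcf21-holding set and by 1.81 in the Tcf21-free set (adjusted p = 6.58e-04 and 0.00476). Abca8a, a lipid transporter gene, fell from 32.4 ± 12.1 to 7.48 ± 2.67 CPM (adjusted p = 0.00189), and in both sets. The endoplasmic reticulum glutathione transferase gene Mgst1 fell to 295 ± 37.3 from 658 ± 268 CPM, and Cavin1, which encodes a coat protein of caveolae, to 776 ± 169 from 1540 ± 348 CPM (adjusted p = 0.00415 for each). Both also fell in each set.

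Steap3, a metalloreductase gene of iron uptake, fell with a log2 fold change of -1.36, Itm2a with -1.94, Tmem100 with -1.65, Serpinb1a with -1.56, Srpx with -1.38 and St3gal1 with -1.03 (adjusted p = 0.00221 to 0.0145). Cldn11, a claudin gene, was at 5.40 to 95.5 CPM in controls and at 2.05 CPM or less in ovariectomized libraries (adjusted p = 0.00415). In total 9 lower genes passed in both sets of libraries: Abca8a, Aldh1a1, C4b, Cavin1, Ifi205, Il11ra1, Lrrc17, Mgst1 and Ogn. Mif, which encodes macrophage migration inhibitory factor, was the 1 higher gene that did. These 10 were picked out by their values.

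**Figure D4:**
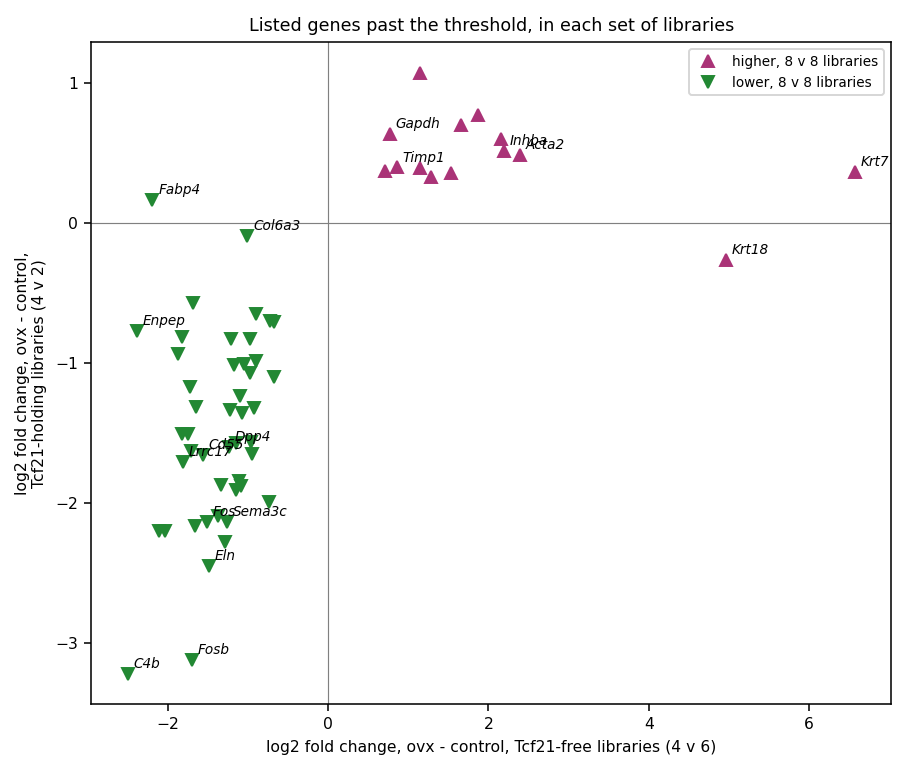
Log2 fold change of ovariectomized against control ASC2 in the Tcf21-free libraries (x axis, 4 against 6) and in the Tcf21-holding libraries (y axis, 4 against 2) for the listed genes that passed between the 8 and 8 libraries and could be tested in both sets. C4b, Fos and Eln lie low on both axes, Krt7 and Krt18 lie far right but near 0 on the y axis, and Fabp4 is lower on the x axis alone.

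Immediate early genes, which are transcribed within minutes of a stimulus, including tissue dissociation, were a further list. Of 23 tested, 5 fell (Fos, Fosb, Nr4a1, Klf4 and Klf6), none rose and the median log2 fold change was -0.70. Fos (ENSMUSG00000021250.14), a subunit of the transcription factor AP-1, was at 290 to 2046 CPM in controls (median 975) and at 80.1 to 495 CPM after ovariectomy (median 258), with A3, F3 and D3 the controls that reached into the ovariectomized range. The log2 fold change was -1.86 (standard error 0.38, adjusted p = 0.0163). Fosb fell from 95.8 ± 67.0 to 18.2 ± 13.4 CPM, the nuclear receptor gene Nr4a1 from 194 ± 123 to 48.6 ± 31.2 CPM and Klf4 from 132 ± 84.4 to 40.0 ± 11.2 CPM (adjusted p = 0.0205, 0.0238 and 0.0277). In the Tcf21-holding set 5 of the list fell, and in the Tcf21-free set none passed (Fos log2 fold change -1.51, adjusted p = 0.110). Egr1 and Jun had log2 fold changes of -1.61 and -1.38 and did not pass (adjusted p = 0.0940 and 0.0660). The share that handling of the tissue had in these values was not tested.

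Among the binding proteins of insulin-like growth factors, Igfbp6 fell from 1491 ± 606 to 589 ± 200 CPM (log2 fold change -1.33, standard error 0.24, adjusted p = 0.00850) and Igfbp4 from 196 ± 105 to 88.2 ± 24.1 CPM (adjusted p = 0.0295). H19, an imprinted long noncoding RNA next to Igf2, fell from 93.9 ± 32.9 to 40.9 ± 16.9 CPM (adjusted p = 0.00850). They were the 3 of 15 genes of the IGF system to pass. Igf1 was at 80.8 ± 20.6 and 68.6 ± 35.1 CPM (adjusted p = 0.871).

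Of 27 adipogenic and lipid genes, Pparg, Fabp4, Plin4 and Ebf2 fell and none rose. Plin4, which encodes a lipid droplet protein, and Ebf2, a transcription factor gene of adipose precursors, passed in neither set, and Plin4 was not tested in the Tcf21-holding one. Pparg, the master transcription factor of adipocytes, was at 18.7 to 55.8 CPM in the 6 Tcf21-free controls, at 0.97 and 2.64 CPM in C3 and D3, and at 12.4 CPM or less after ovariectomy. Its log2 fold change was -2.43 (standard error 0.63, adjusted p = 0.0499), at the threshold, and 13 of the 16 single-library omissions lost it. Fabp4, a fatty acid carrier, was at 91.1 to 114 CPM in Tcf21-free controls against 7.88 to 27.5 CPM in Tcf21-free ovariectomized libraries (log2 fold change -2.19, adjusted p = 1.54e-04), but at 35.9 and 47.6 against 40.9 to 55.1 CPM in the Tcf21-holding set (log2 fold change 0.16, adjusted p = 0.844).

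Lpl, the lipoprotein lipase gene, chosen after its values were seen, was at 87.1 to 125 CPM in M3 to P3 and at 273 to 1704 CPM in the other 12 libraries. Cebpa was at 11.4 ± 4.83 and 5.45 ± 4.82 CPM (adjusted p = 0.223). Genes of mature adipocytes were near the limit of detection, with a sum over 9 markers of 1.32 to 21.1 CPM in controls and 0 to 6.14 CPM after ovariectomy (two-sided exact permutation test over 8 and 8 libraries, p = 0.00249, adjusted p = 0.0112 over 9 library properties). In the Tcf21-free set the sum was 7.20 to 21.1 CPM in controls and 0 to 2.50 CPM in M3 to P3. In M3 to P3, 3 counts correspond to 3.39 to 26.1 CPM. In the Tcf21-holding set it was 4.85 and 1.32 CPM in C3 and D3 against 0 to 6.14 CPM in I3 to L3. The part of mature adipocyte genes in the adipogenic genes was not tested.

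Inhba (ENSMUSG00000041324.15), the subunit of activin A, rose, with the smallest p among the listed genes that were higher. It was at 95.4 to 281 CPM in controls (median 147) and at 319 to 662 CPM after ovariectomy (median 526), without overlap (log2 fold change 1.56, standard error 0.23, adjusted p = 0.00231). The values of the 2 Tcf21-holding controls, 277 and 281 CPM, lay just below the 319 to 500 CPM of the 4 ovariectomized libraries of that set, where the log2 fold change was 0.51 (adjusted p = 0.198), against 2.19 in the Tcf21-free set (adjusted p = 2.76e-06). It was the 1 gene of 33 in the TGF-beta and BMP pathway that rose, and Id2, a target of BMP signalling, the 1 that fell (adjusted p = 0.0270).

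Acta2, the smooth muscle actin that also marks myofibroblasts, was at 93.7 to 446 CPM in Tcf21-free controls, at 1073 and 1328 CPM in C3 and D3, and at 1527 to 2055 CPM after ovariectomy except in M3 (766 CPM). Its log2 fold change was 1.63 (standard error 0.37, adjusted p = 0.0272), 2.39 in the Tcf21-free set (adjusted p = 3.0e-04) and 0.49 in the Tcf21-holding set (adjusted p = 0.0860). The call was lost without G3, H3, K3, L3, O3 or P3, left out one at a time. Cnn1, Actg2 and Tpm1, further actin filament genes named after their values were seen, rose with log2 fold changes of 2.03, 1.93 and 0.88 (adjusted p = 0.0297, 0.0332 and 0.0239), as did Ccn2, a matricellular growth factor gene (1.58, adjusted p = 0.0117). The focal adhesion gene Zyx was at 337 CPM or less in every control and at 346 CPM or more in every ovariectomized library (log2 fold change 0.60, adjusted p = 0.0408), a call that 11 of the 16 single-library omissions lost. Serinc2 and Pqlc1, both genes of multi-pass membrane proteins, also rose without overlap (log2 fold changes 1.29 and 0.87, adjusted p = 0.0117 and 0.0205).

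The summed level of 12 mural cell markers, the list that holds Acta2, was 261 to 2652 CPM in controls and 1391 to 3776 CPM after ovariectomy (log2 difference 1.94, two-sided exact permutation test, p = 0.00155, adjusted p = 0.0112). Of 10 tested, 8 had a positive log2 fold change (median 1.01) and Acta2 alone passed. Tagln, an actin-binding gene of smooth muscle, was at 51.5 to 1023 CPM in controls and 499 to 1635 CPM after ovariectomy (adjusted p = 0.0660). Des, the desmin gene, was at 9.004 to 182 and 0 to 260 CPM, and Mylk, a myosin kinase gene, at 6.24 to 79.3 and 7.88 to 122 CPM (adjusted p = 0.497 and 0.447), with both highest in Tcf21-holding libraries of each group. Kcnj8, a pericyte potassium channel gene, and Myh11, the smooth muscle myosin gene, were at 57.8 and 17.5 CPM or less in every library. The sum over 15 endothelial markers was lower, 170 to 361 against 119 to 267 CPM (log2 difference -0.61, exact permutation p = 0.00730, adjusted p = 0.0219), and of 10 tested Tek alone fell, from 120 ± 72.0 to 42.1 ± 19.1 CPM (adjusted p = 0.0277). Over the 10 the median log2 fold change was 0.02, with 5 positive and 5 negative. The part of other cell types in these results was not tested.

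Krt7, Krt8, Krt14 and Krt18 were high in M3 to P3 and low in the other 12 libraries, whereas Krt19, on the same list, was at 49.8 to 208 CPM in controls, 6.14 to 13.1 CPM in I3 to L3 and 47.3 to 69.6 CPM in M3 to P3. Krt8, a keratin of simple epithelia, was at 1.47 to 12.5 CPM in controls, at 1.63 to 17.6 CPM in I3 to L3, and at 198, 327, 447 and 531 CPM in M3, N3, O3 and P3. Krt7, Krt18 and Cldn4 showed the same libraries high, with 72.3 to 215, 158 to 432 and 80.2 to 313 CPM in M3 to P3 and at most 12.4, 25.0 and 14.0 CPM in the other 12 libraries. Krt14, a basal cell keratin, had no read in any control and was at 67.8 to 218 CPM in M3 to P3. Of 8 epithelial markers tested 4 rose between the groups as labelled (adjusted p = 0.0121 to 0.0499), 7 in the Tcf21-free set and none in the Tcf21-holding set, where Krt19 fell (log2 fold change -2.76, adjusted p = 1.42e-04). The sum over the list was 66.4 to 283 CPM in controls, 32.7 to 51.6 CPM in I3 to L3 and 725 to 1767 CPM in M3 to P3 (two-sided exact permutation test, 8 against 8, p = 0.269). M3 to P3 are also the Tcf21-free ovariectomized libraries and include the 3 shallowest, so these keratins move with every result of the Tcf21-free set, and their part in those results was not tested.

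Esr1, the main estrogen receptor of adipose tissue, did not pass, at 14.8 to 85.9 CPM in controls and 9.99 to 43.5 CPM after ovariectomy (log2 fold change -0.59, standard error 0.33, adjusted p = 0.416). Pgr and Greb1, which estrogen induces in many tissues, followed Tcf21 and not the group label. Pgr was at 34.9 and 60.8 CPM in C3 and D3 and 31.1 to 63.8 CPM in I3 to L3, and at 9.22 CPM or less in the other 10 libraries (log2 fold change in the Tcf21-holding set 0.09, adjusted p = 0.937). Of 16 estrogen target genes, Ccn5, Fos and Igfbp4 fell and none rose. Ccn5, a growth inhibitory matricellular protein gene, fell, with 33.2 to 123 CPM in controls (median 67.4) and 0 to 34.2 CPM after ovariectomy (log2 fold change -1.60, standard error 0.29, adjusted p = 0.00970) and in the Tcf21-holding set (-1.51, adjusted p = 0.00297). The median of the list was 0.15 on the log2 scale.

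Of the sexually dimorphic genes listed by the study, 13 higher in females and 17 higher in males were tested. None of the 13 passed, among them Il4ra (515 ± 347 and 674 ± 365 CPM), Ptpn5 (82.7 ± 78.9 and 164 ± 92.0 CPM) and the steroid reductase gene Akr1c14 (155 ± 134 and 67.7 ± 48.2 CPM, adjusted p = 0.226). Of the 17, Agt and the Y-chromosome genes Ddx3y and Eif2s3y were lower, the last 2 without a read in any ovariectomized library. Agt, the angiotensinogen gene, was at 0 to 22.1 CPM in controls and at 2.78 CPM or less after ovariectomy (adjusted p = 0.0159). In the Tcf21-holding set it had 5 reads in each control and 1 to 3 after ovariectomy, too few to be tested. Its highest control values were in Tcf21-free libraries with Y-chromosome reads, where ovariectomy and those reads cannot be told apart. Enpep, an aminopeptidase that degrades angiotensin II, fell from 56.1 ± 20.8 to 17.4 ± 9.63 CPM (log2 fold change -1.49, standard error 0.28, adjusted p = 0.0117), and Ace was at 119 ± 73.4 and 52.8 ± 24.0 CPM (adjusted p = 0.132). Fkbp5 was at 36.5 ± 15.8 and 37.6 ± 15.6 CPM (adjusted p = 0.991). The estrogen sulfotransferase gene Sult1e1 had no read in any of the 16 libraries, and C7 was at 14.4 CPM or less. Of 16 steroid-metabolizing enzymes Ugt1a6a alone fell, at 201 CPM or more in controls and 178 CPM or less after ovariectomy (adjusted p = 0.00967), with reads that could be shared among the Ugt1a isoforms.

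The remaining lists showed few calls. In glycolysis Gapdh rose from 2083 ± 591 to 3662 ± 679 CPM (adjusted p = 0.0239), the 1 of 25 to pass, with a median of 0.58 on the log2 scale, and in oxidative phosphorylation Cox5a was the 1 of 52. In the Wnt pathway Dkk3 and Ccn4 rose and Wnt2, Sfrp4 and Ccn5 fell, out of 26. Of 25 growth factor genes for vessels and nerves Sema3c alone fell. No gene passed among 37 of the cell cycle, 35 of the interferon response, 27 of heat shock and endoplasmic reticulum stress, 23 of cholesterol synthesis (median 0.50), 18 induced by glucocorticoids, 13 of macrophages and leukocytes, 9 of the visceral depot and mesothelium (which include Tcf21, Wt1 and Upk3b, present in both groups), 9 of subcutaneous depots, 11 Hox genes, 6 of muscle, nerve and blood, and 1 of mast cells. The summed leukocyte, mast cell and muscle, nerve and blood markers, total count and genes detected did not pass (exact permutation tests, adjusted p = 0.0972 to 0.475).

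The effect in ASC2 was compared with that in ASC1, where the labels give 8 control and 3 ovariectomized libraries. The difference of the 2 effects passed for 4072 of 11484 genes (35.5%), and within ASC1 alone 4100 genes differed (35.7%). Of the 8 control ASC1 libraries 5 held Y-chromosome reads and 5 held Tcf21, and none of the 3 ovariectomized ones held either, so that the ASC1 effect and these properties cannot be told apart. Fos rose in ASC1 (log2 fold change 4.23, adjusted p = 6.03e-09) and fell in ASC2, a difference of -6.11 (standard error 0.55, adjusted p = 1.02e-09). C4b had a log2 fold change of 2.30 in ASC1 (difference -5.19, adjusted p = 1.02e-07), and Inhba of -5.39 (difference 6.93, adjusted p = 3.22e-07). Dpp4 had -0.29 in ASC1, and its difference did not pass (-1.14, standard error 0.64, adjusted p = 0.166). Leaving out L4, 1 of the 3 ASC1 libraries, lowered the count to 2594. ASC1 and ASC2 libraries were treated as independent in this comparison, although they may come from the same mice.

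The difference between the ovariectomy effect and that of castration in male ASC2, which share no library, passed for 46 of 11864 genes (0.388%). Of the 184 genes that differed after ovariectomy, 43 also differed in the same direction after castration. In either direction, castration changed 602 of the 11864 genes tested (5.07%). Tcf21 was held by 2 of the 8 castrated ASC2 libraries and by 0 of the 8 control male ones. Its part in the shared genes was not tested. Control male ASC2 libraries were in plate rows A to H and castrated ones in rows I to P, the same rows as in the ovariectomy comparison. Plate position and a shared effect of surgery therefore cannot be told apart in these genes. C4b fell after castration (log2 fold change -2.44, adjusted p = 5.69e-05) with a difference of -0.43 between the 2 effects (standard error 0.50, adjusted p = 0.823), and Lrrc17 fell (-1.20, adjusted p = 0.00236) with a difference of -0.81 (standard error 0.34, adjusted p = 0.377). Dkk3, a Wnt modulator gene, fell after castration (-1.98, adjusted p = 3.24e-05) and rose after ovariectomy, a difference of 2.94 (standard error 0.40, adjusted p = 9.35e-05). Agt differed by -4.17 (standard error 0.78, adjusted p = 0.0100) and Fabp4 by -2.22 (standard error 0.48, adjusted p = 0.0201). In 4 of the 8 libraries labelled control male ASC2, 20 or more Xist reads were found, and without all control libraries whose sex-chromosome transcripts went against their label no gene passed in edgeR, with 743 at an unadjusted p below 0.05.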

How the data were processed

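RNA of ASC2 was measured in 8 control and 8 ovariectomized libraries, grouped by sample title. Adapters were removed by the authors with NGmerge, and STAR 2.7.10a served for quality control. They quantified reads with and without UMIs with Salmon 1.9.0 on Gencode transcripts (GRCm39). They deposited estimated counts for 56953 genes, not normalized. Of values above 0, 15.0% were not whole, and all were rounded. Total counts set the precision, and a floor of 3 counts per library corresponds to 2.67 to 26.1 CPM (counting error only). PCR reads are not independent molecules.

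A gene was tested if more than 3 of the 16 libraries held 5 or more of its reads, in R 4.3.3 with edgeR 4.0.16 (TMM, estimateDisp, glmQLFit, glmQLFTest), and p-values were adjusted by Benjamini-Hochberg. Standard errors are the fold change over the root of F. The interaction with ASC1 used 27 female libraries, and that with castration 32 ASC2 libraries. List sums were compared by two-sided exact permutation tests of log2(CPM + 1). DESeq2 1.42.0 and limma 3.58.1 (voom) were alternatives. The edgeR step was tested on simulated data. No 2 libraries of a group were copies (lowest chi-square per gene 1.53). The study lists separate mice for the castrated, ovariectomized and control groups, but the labels tie no library to a mouse. ASC1 and ASC2 libraries of a group may come from the same mice. The interaction with ASC1 treated them as independent, except where plate row was a block.

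Named are up to 12 non-overlapping genes in each direction with the largest change and a mean of at least 20 CPM, up to 4 called members of each list, and set genes such as Esr1 and Pgr. Others are said to be chosen after their values were seen. The members and lists were chosen with earlier results of these data known. Gene symbols came from an earlier Gencode annotation, joined on the identifier, for 52029 identifiers. That release is on another build, so no coordinates are given. A gene set by the rule is not reported here.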

Additional observations from a re-analysis of the deposited data

Results flagged for a closer look

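In groups of 8 libraries, 16 values lay far from the rest of their group by Dixon's criterion, which chance meets in about 1 in 20 groups. How many of the 16 chance would give was not tested. E3 held 6 of these values among the controls, with Itm2a at 1263, Il1r2 at 634, Tmem100 at 270 and Id2 at 242 CPM, all above the other controls. Col15a1 at 17.2 and Agt at 0 CPM lay below them. P3, the shallowest library, held 5 among the ovariectomized, with Ccn5, Greb1 and Srpx at 0, Ace at 8.71 and Xist at 26.1 CPM, all low; 3 counts in P3 correspond to 26.1 CPM. N3 was low for Id2 and Fabp4 (7.88 CPM each) and J3 for Abca8a (1.85 CPM), each at 2 reads, below the floor of 3 counts. M3 was high for Mgst1 (377 CPM) and low for Acta2 (766 CPM).

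Effects of ovariectomy that differed between ASC2 and ASC1 (edgeR interaction, adjusted p below 0.05, 8 against 8 and 3 against 8 libraries) are given for the non-overlapping genes as log2 differences, ASC2 minus ASC1. They were positive for Serinc2 (8.38), Mmp10 (7.94), Inhba (6.93), Timp1 (5.57), Zyx (3.88) and Pqlc1 (3.24). They were negative for Itm2a (-5.59), Abca8a (-5.31), Il1r2 (-4.72), Tmem100 (-4.50), Lrrc17 (-4.09), Srpx (-3.43), Steap3 (-2.74), Mgst1 (-2.68), Serpinb1a (-2.40), Cavin1 (-2.14) and St3gal1 (-1.69). Of all 79 genes named, 66 passed this test, against 4072 of 11484 genes tested (35.5%). Many of the 79 were named for their change in these same ASC2 libraries, so their count is a description. The ASC1 effect cannot be told apart from Tcf21 and Y-chromosome reads.

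Against castration in male ASC2, 11 of the 79 passed, and 46 of 11864 genes tested (0.388%). The 79 were chosen in part by the same ovariectomy effect, so this count is a description too. The log2 difference, ovariectomy minus castration, was positive for Krt7 (7.57), Krt8 (6.87), Krt18 (5.36), Dkk3 (2.94), Masp1 (2.56), Mmp10 (2.24) and Serinc2 (2.23), and negative for Agt (-4.17), Fabp4 (-2.22), Eif2s3y (-6.66) and Ddx3y (-6.55). The keratins among them were high in M3 to P3 alone, and the Y-chromosome genes were read in control libraries labelled female.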

How the results depend on the processing

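The 184 genes between ovariectomized and control ASC2 became 322 with no count filter and 357 with DESeq2, and 135 to 261 under 8 further settings of scaling, filter, tool and libraries. They became 2 without controls whose sex-chromosome transcripts go against their label and 0 with the Y-chromosome level as a covariate (edgeR, 893 genes with an unadjusted p below 0.05). That covariate nearly matched the group label, so its fit cannot separate ovariectomy from the Y-chromosome transcripts. Under settings chosen after seeing the data the 184 became 300 with a Tcf21 term, 114 without Tcf21-holding libraries and 453 without the keratin libraries. Omitting single libraries gave 71 to 342, and for the ovariectomy effect in ASC2 against that in ASC1, omitting ASC1 libraries gave 2594 (without L4) to 4034. The 46 genes that differed from castration became 191 with no count filter, 76 with all 58 libraries, 119 with DESeq2 and 0 without the conflicting controls (edgeR, 743 with an unadjusted p below 0.05). The causes were not tested.

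Log2 fold changes that turned sign without the conflicting controls were Fkbp5 0.46, Tbx15 0.16, Col15a1 -0.14, Il4ra -0.63, Ptpn5 -0.25, Pgr -0.58, Greb1 -0.30, Tcf21 -0.28 and Xist -0.38. With the Y-chromosome covariate they were Pparg 1.78, Fkbp5 0.48, Tbx15 0.16, Col15a1 -0.051, Il4ra -0.65, Ptpn5 -0.20, Pgr -0.59, Greb1 -0.29, Tcf21 -0.30, Ddx3y 0.051 and Xist -0.45. With the Tcf21 term they were Fkbp5 0.19, Il4ra -0.016 and Pgr -0.046. Without Tcf21-holding libraries they were Fkbp5 0.27, Col15a1 -0.017, Il4ra -0.0055 and Pgr -0.45, and without those lacking it Krt18 -0.27, Fkbp5 0.062, Il4ra -0.049, Fabp4 0.16 and Xist -0.24. Krt18 was -0.024 without keratin libraries and Fkbp5 0.0075 with library size only. Of these genes Pparg, Krt18, Fabp4 and Ddx3y had passed the threshold. The 9 library properties kept their side of the threshold on the untransformed scale.

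No paired analysis was possible because control and ovariectomized ASC2 libraries share no plate row or replicate number. All controls were in rows A to H and all ovariectomized libraries in rows I to P, so plate position and ovariectomy cannot be told apart. For the ovariectomy effect in ASC2 against that in ASC1, plate row as a replicate block gave 2821 genes. Depth limits P3 and N3 most.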
